A study of Mus musculus with 54 samples.

Results

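The genes described here encode the proteins of the mitochondrial ribosome. They were taken by symbol, as every gene named Mrpl or Mrps followed by a number that both deposited expression tables list, pseudogene symbols left out. The rule gave 78 genes, 49 Mrpl and 29 Mrps, of 10799 genes in the culture table and 10176 in the genotype table. All 78 passed the filter on low values in both tables, and none was listed at 0 in any library.

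Mitochondrial ribosomes translate the few messenger RNAs made from mitochondrial DNA, which code for membrane subunits of the respiratory chain and the ATP synthase. Their ribosomal RNA is made in the organelle, whereas all of their proteins are encoded in the nucleus, made in the cytosol and imported. Lymphocytes that leave rest build up mitochondria and respiratory capacity, and new respiratory complexes need mitochondrial translation. The large subunit carries most Mrpl products and the small subunit most Mrps products. Each holds proteins with a bacterial counterpart and proteins found only in mitochondria. Some names mislead: Mrps18a and Mrps30 encode proteins of the large subunit, and the product of Mrps36 is now known as a subunit of the oxoglutarate dehydrogenase complex. Of the 78 genes, 28 encode large subunit proteins of bacterial type, 23 large subunit proteins specific to mitochondria, 16 small subunit proteins of bacterial type and 10 small subunit proteins specific to mitochondria, with Mrps36 counted apart.

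ILC2s of the small intestine, innate lymphocytes of group 2 that secrete type 2 cytokines, were profiled by full-length Smart-seq2 in 40 libraries, in 10 groups of 4. All came from C57BL/6 mice aged 8 to 12 weeks, male and female pooled per the labels. The culture experiment had 24 libraries, made from WT cells after 4, 48 or 72 h in IL-2 and IL-7, with IL-25 added in 12 of them. IL-25 is made by epithelial tuft cells and stimulates ILC2s. The other 16 libraries came from primary cells, labelled nILC2 or iILC2 and CTRL or KO, and all of these carried the labels IL25 and 48h. What n and i stand for is not given. The series text gives the KO as Rxrg-/-, without the nuclear receptor retinoid X receptor gamma, and the controls as Rxrg+/+, while the sample descriptions use the word cKO, so whether the deletion is limited to some cells cannot be told from the labels. Nothing states that libraries of a group came from separate animals or cultures, so p-values measure the spread between these libraries, which may be technical.

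The values were TPM, a length-corrected share of transcripts, so depth is unknown and only shares of RNA can be compared. The total over listed genes ranged from 873200 to 898025 TPM in culture and from 849733 to 886670 TPM in the genotype experiment. Rxrg was at 15.1 ± 3.29 TPM in nILC2 CTRL and 2.18 ± 0.826 TPM in nILC2 KO, and at 1.62 ± 0.250 TPM in iILC2 CTRL and 0.280 ± 0.207 TPM in iILC2 KO (SD, n = 4 in each). The ILC2 markers Gata3, Klrg1 and Il17rb were present in all libraries, whereas Il1rl1 was at 3.49 ± 2.11 TPM in iILC2 CTRL against 66.8 ± 10.6 TPM in nILC2 CTRL. Of other cell types, the 2 listed erythroid markers of 6 summed to between 479 and 798 TPM in libraries kept 48 or 72 h without IL-25 and to between 8.7 and 20.9 TPM in those with it. The 2 listed T cell markers of 7 summed to between 82.4 and 128.7 TPM and between 23.9 and 42.2 TPM in the same groups, with Cd3d, Trac and Cd4 not listed. Some other markers were higher with IL-25 at the times given next, without overlap. The one listed stromal and endothelial marker of 6 was at 32.8 to 42.4 TPM without and 146 to 161 TPM with it at 4 h. The one listed B cell marker of 6, Cd79b, was at 43.5 to 49.8 and 71.3 to 91.5 TPM at 48 h and at 37.6 to 47.1 and 131.7 to 156.9 TPM at 72 h, and the 2 listed myeloid markers of 8 summed to between 12.1 and 26.9 TPM and between 31.1 and 45.4 TPM at 72 h. At 4 h Cd79b was lower with IL-25, at 25.2 to 30.1 TPM without and 12.3 to 19.5 TPM with it. So were the listed ILC1 and NK cell markers (8.39 to 11.8 and 3.06 to 6.02 TPM). The same held for T cell markers (28.9 to 35.3 and 15.9 to 25.5 TPM) and erythroid markers (60.5 to 82.5 and 5.6 to 9.37 TPM). The 4 listed ILC3 markers of 5 were lower with IL-25 at 48 h (13.8 to 20.3 and 1.55 to 3.42 TPM) and 72 h (12.0 to 18.8 and 1.92 to 2.86 TPM). The 2 listed epithelial markers of 10 were lower with IL-25 at each time, without overlap. Their sums were 171 to 186 and 87.7 to 99.8 TPM at 4 h, 95.9 to 112.8 and 35.1 to 40.5 TPM at 48 h, and 68.0 to 88.1 and 51.5 to 61.5 TPM at 72 h. The part of any of these markers in the differences below was not tested. In bulk RNA, fewer cells of a type and less RNA per cell cannot be told apart.

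Mitoribosomal protein genes were expressed at a middle to high level. The median of their mean TPM was 88.2 in the culture table, against 14.2 over all listed genes, and 75.6 against 15.5 in the genotype table. In both tables Mrpl33 and Mrpl52 were the most abundant, at 402 and 307 TPM in culture and 353 and 328 TPM in the genotype experiment, followed by Mrpl30 at 288 TPM and by Mrps21 at 252 TPM. Mrpl1, whose product forms the mobile stalk beside the exit site of the large subunit, was the least abundant in both, at 14.6 and 13.2 TPM. Mrps31 came next to last in both, at 20.1 and 14.8 TPM.

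Promoters were compared first, because coordinate expression of genes for mitochondrial proteins is commonly ascribed to ETS-family (GABP), NRF1, YY1 and MYC-type factors. RefSeq promoter windows of 300 bases (250 before and 50 after the start, build GRCm38.p6) were found for 69 of the 78 genes. The ETS core CCGGAAG, searched on both strands, was in 25 of these 69 windows (36.2%), against 9.12% of the 27025 gene windows in the table. The NRF1-type site GCATGCGC was in 8 (11.6% against 2.80%), and the YY1-type core AAGATGG in 13 (18.8% against 6.48%). The E-box CACGTG, which MYC-type factors bind, was in 5 (7.25% against 7.24%), and the TATA box TATAAA in 4 (5.80% against 14.2%). Either the ETS core or the NRF1-type site was in 29 (42.0% against 11.4%). The 27025 windows include those of genes that neither expression table lists, whereas every member is expressed. Shares over expressed genes alone were not counted, so the excess may not be particular to the members. The median GC content was 58.3% in members and 52.7% in all windows, and its part in these shares was not tested. These matches are letters in a window, not binding sites.

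Windows are printed for Mrps7 and Mrpl24, the members with the largest rise and the largest fall with IL-25 at 72 h, and for the Mrps18 paralogs, which moved apart in these cells. Capitals mark matches to the motifs above on either strand. The windows are Mrps7 (chr11:115603890-115604189, plus strand), Mrpl24 (chr3:87919294-87919593, plus), Mrps18a (chr17:46110754-46111053, plus), Mrps18b (chr17:35916391-35916690, minus) and Mrps18c (chr5:100798509-100798808, plus).
Mrps7: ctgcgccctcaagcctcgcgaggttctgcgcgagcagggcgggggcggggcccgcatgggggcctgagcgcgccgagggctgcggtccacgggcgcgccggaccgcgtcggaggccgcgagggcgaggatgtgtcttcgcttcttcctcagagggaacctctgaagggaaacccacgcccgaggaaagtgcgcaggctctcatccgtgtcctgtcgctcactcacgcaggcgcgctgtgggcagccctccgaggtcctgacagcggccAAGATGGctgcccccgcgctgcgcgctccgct
Mrpl24: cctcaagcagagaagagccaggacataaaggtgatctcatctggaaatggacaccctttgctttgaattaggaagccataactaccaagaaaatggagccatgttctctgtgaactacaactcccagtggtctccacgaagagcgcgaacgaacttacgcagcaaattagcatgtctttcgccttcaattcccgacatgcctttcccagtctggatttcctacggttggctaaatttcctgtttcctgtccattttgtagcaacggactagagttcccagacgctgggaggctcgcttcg
Mrps18a: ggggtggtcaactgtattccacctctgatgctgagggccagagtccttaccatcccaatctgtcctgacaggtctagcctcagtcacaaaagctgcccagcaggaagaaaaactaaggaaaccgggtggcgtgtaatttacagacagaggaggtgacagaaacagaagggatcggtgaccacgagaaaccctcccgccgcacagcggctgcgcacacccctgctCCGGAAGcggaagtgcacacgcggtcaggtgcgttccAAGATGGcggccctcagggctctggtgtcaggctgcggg
Mrps18b: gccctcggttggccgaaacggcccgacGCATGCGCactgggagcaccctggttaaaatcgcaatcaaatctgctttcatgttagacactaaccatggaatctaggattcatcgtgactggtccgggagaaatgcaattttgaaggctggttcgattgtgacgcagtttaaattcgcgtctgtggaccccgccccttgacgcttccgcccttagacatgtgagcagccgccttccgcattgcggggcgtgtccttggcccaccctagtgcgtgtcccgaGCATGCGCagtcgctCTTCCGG
Mrps18c: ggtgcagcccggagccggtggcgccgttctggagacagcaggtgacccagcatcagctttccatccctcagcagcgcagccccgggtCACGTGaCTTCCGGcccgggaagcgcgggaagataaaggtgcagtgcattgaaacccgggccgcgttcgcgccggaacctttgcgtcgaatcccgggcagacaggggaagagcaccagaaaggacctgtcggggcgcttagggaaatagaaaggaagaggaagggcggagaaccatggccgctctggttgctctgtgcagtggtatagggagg
All 3 Mrps18 windows held the ETS core. Mrps18b also held the NRF1-type site at 2 positions, Mrps18a the YY1-type core and Mrps18c the E-box next to its ETS core. Mrps7 held the YY1-type core just after its start, and the Mrpl24 window held none of these motifs. In the table this window belongs to a start 1413 bases inside the annotated gene span, whereas the other printed windows lie at the outer start. Of the 69 windows 22 use a start other than the outermost, 12 of them more than 300 bases away. At 48 h with IL-25 the ETS core was in 18 of the 48 members with a window that rose, in 1 of the 3 that fell and in 6 of the 18 that were not called.

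The summed RNA of the 78 genes was higher with IL-25 at 4 h and most of all at 48 h, and not at 72 h. At 4 h the sums in the 4 libraries without IL-25 were 7923, 7853, 7693 and 7533 TPM, and with IL-25 8643, 8843, 8780 and 8508 TPM. At 48 h they were 8121, 8092, 7805 and 7894 TPM without and 9843, 10139, 10031 and 10127 TPM with IL-25. At 72 h they were 8001, 7820, 7494 and 7699 TPM without and 7916, 7585, 8009 and 7819 TPM with it. The groups did not overlap at 4 h or 48 h and overlapped at 72 h. As a share of all listed RNA the members made up 0.875% ± 0.0205 and 0.970% ± 0.0178 at 4 h, 0.910% ± 0.0189 and 1.13% ± 0.0123 at 48 h, and 0.882% ± 0.0247 and 0.880% ± 0.0171 at 72 h (SD, n = 4), each time first without and then with IL-25.

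**Figure D1:**
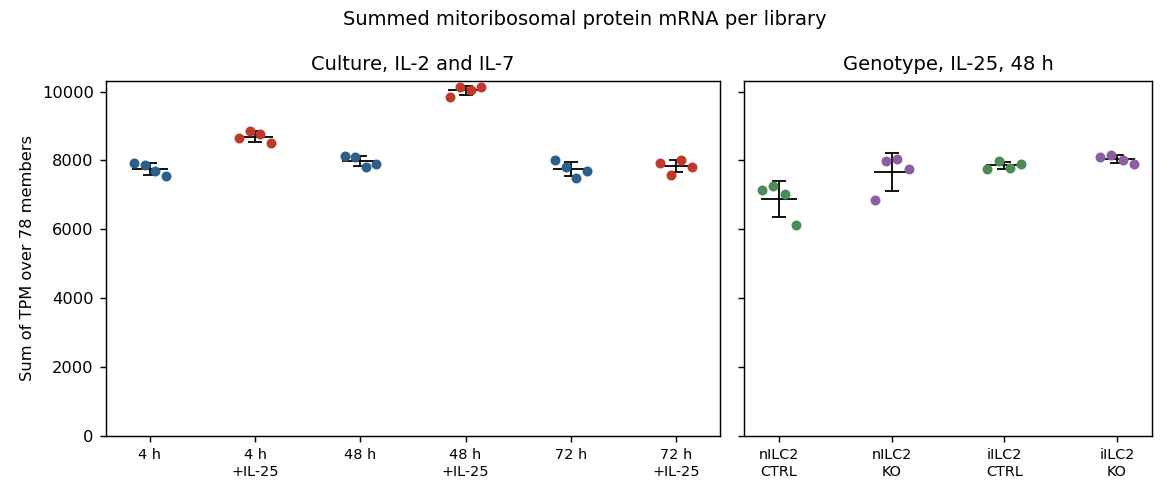
Sum of TPM over the 78 mitoribosomal protein genes in each library (points), with the group mean and SD (bars), for the 6 culture groups on the left and the 4 genotype groups on the right. The 4 libraries with IL-25 at 48 h lie between 9843 and 10139 TPM, above all other libraries.

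At 4 h, 34 of the 78 members rose and 4 fell with IL-25, against 40.3% of 10548 genes called in either direction, most of them lower (26.9% of genes fell and 13.4% rose; limma, adjusted p under 0.05). The members' median log2 fold change was 0.18 where that of all genes was -0.12, and 66 of the 78 lay above the latter. Mrps6, whose bacterial counterpart sits on the platform of the small subunit, was at 118, 133, 147 and 127 TPM without IL-25 and at 259, 243, 278 and 245 TPM with it, a log2 fold change of 0.96 (SE 0.08, adjusted p 9.37e-10). The span of Mrps6 holds Slc5a3, and the strand of the counting is not recorded, so reads of the pair may not have been told apart. Mrpl32 rose by 0.77 (SE 0.09, adjusted p 1.10e-07), from 113 ± 9.30 to 193 ± 15.6 TPM. Its product is cut by the m-AAA protease before it joins the large subunit. Mrpl50 and Mrpl15 rose by 0.71 and 0.66. Mrpl4 fell by 0.41, from 101 ± 6.31 to 76.1 ± 7.99 TPM, and no library overlapped.

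At 48 h the response was broadest: 54 members rose and 3 fell, against 50.1% of genes called (21.4% higher and 28.7% lower). The median was 0.40, against -0.09 over all genes. All 4 structural classes moved in the same direction: 18 of 28 large subunit genes of bacterial type rose and 2 fell, 17 of 23 mitochondrial large subunit genes rose and 1 fell, and 12 of 16 and 6 of 10 small subunit genes of the corresponding classes rose, none falling. Mrps36 rose as well, by 0.41 (SE 0.08, adjusted p 1.79e-04). A change of at least 2-fold on the log2(TPM + 1) scale was reached by 6 members, Mrpl1, Mrps6, Mrps7, Mrps10, Mrps18b and Mrps22, all higher.

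Mrps7, a protein of the head of the small subunit that contacts the 3′ domain of its RNA, had 54.0, 48.2, 42.9 and 41.9 TPM without and 108, 100.4, 110.7 and 118.9 TPM with IL-25 at 48 h. Every library with IL-25 was well above every library without it, and the log2 fold change was 1.21 (SE 0.09, adjusted p 1.86e-11). Mrps7 overlaps Gga3 and Mif4gd in the annotation. Mrps10, a neighbour of Mrps7 in the head, rose by 1.14 (SE 0.08, adjusted p 2.38e-11) from 48.6 ± 2.69 to 108.4 ± 4.19 TPM, and it overlaps no other listed gene. Mrpl1 rose from 10.9 ± 1.54 to 25.2 ± 2.11 TPM, by 1.15 (SE 0.13, adjusted p 8.60e-08). Among the proteins of the lateral stalk, where translation factors are recruited, Mrpl12 rose most, by 0.79 (SE 0.10) from 75.3 ± 6.56 to 131.1 ± 10.7 TPM, Mrpl11 rose by 0.40 and Mrpl10 by 0.35. Mrps12, a decoding centre protein, rose by 0.59 (SE 0.11) from 142.2 ± 9.55 to 215.3 ± 25.9 TPM.

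The 3 members that fell at 48 h encode large subunit proteins. Mrpl52 fell by 0.40, from 358.8 ± 32.4 to 272.4 ± 21.4 TPM. Mrpl24 and Mrpl23, whose bacterial counterparts lie near the exit of the peptide tunnel, fell by 0.39 and 0.32. Mrpl45, which ties the tunnel exit to the inner membrane, went the other way and rose by 0.34 from 41.3 ± 1.54 to 52.7 ± 4.31 TPM. Mrpl44 was at 41.7 ± 4.94 and 43.1 ± 1.91 TPM and Mrps18c at 140.7 ± 17.6 and 137.3 ± 16.1 TPM, and neither was called.

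At 72 h the members went both ways. With IL-25, 14 rose and 20 fell, against 48.5% of genes called (15.3% higher and 33.2% lower), and the median was -0.02 where all genes had -0.20. Relative to that all-gene median, 54 of 78 members lay above. The split depends on the scaling. Rescaling each library by the median of ratios moved the all-gene median to 0.01. Then 38 members rose and 3 fell, with 45.5% of all genes called. Quantile normalization gave 15 and 16, with 44.0% called. Mrps7 had the largest rise, with 37.5, 43.4, 41.6 and 43.5 TPM without and 72.7, 62.0, 75.3 and 67.2 TPM with IL-25 (log2 fold change 0.72, SE 0.09, adjusted p 2.23e-07). Mrpl1 rose by 0.69, Mrpl20 by 0.59 and Mrps10 by 0.58. Mrpl24 showed the largest fall, from 89.5, 93.8, 89.7 and 74.1 TPM to 45.1, 50.5, 58.7 and 43.0 TPM, by 0.81 (SE 0.09, adjusted p 8.43e-08). Its span overlaps Rrnad1. Mrpl23 fell by 0.62 and Mrpl48, which overlaps Rab6a, by 0.60. These 3 falls and the 4 rises were called under all 3 scalings, whereas the fall of Mrpl13 by 0.52 was not called under the median of ratios (adjusted p 0.0789).

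Over the 3 times, which share no libraries, 8 members rose at each: Mrpl20, Mrpl46, Mrpl54, Mrps6, Mrps7, Mrps10, Mrps18b and Mrps28. No member fell at all 3. Among all 78 members, 69.2% rose at 48 h, the share against which the next overlaps are to be read. Of the 34 members that rose at 4 h, 31 also rose at 48 h, which is 91.2% of the first list and 57.4% of the second. Of the 14 that rose at 72 h, 13 had risen at 48 h (92.9% and 24.1%). Another 5, namely Mrpl38, Mrpl45, Mrps5, Mrps18a and Mrps26, rose at 48 h and fell at 72 h as deposited. For Mrps18a the 72 h value turned to 0.03 under the median of ratios, and its call was lost with quantile normalization (adjusted p 0.203), when only the 2 groups were fitted (0.0553) and without any one of 4 libraries (72h_IL2_IL7 replicates 2 and 4, 72h_IL2_IL7_IL25 replicates 1 and 2, adjusted p between 0.0537 and 0.0858). For Mrps5 the 72 h value was -0.13 under the median of ratios and not called (adjusted p 0.225), and for Mrpl45 the call was lost under both other scalings and without any of 4 single libraries (72h_IL2_IL7 replicates 1 and 4, 72h_IL2_IL7_IL25 replicates 2 and 4), at values between -0.26 and -0.17.

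**Figure D2:**
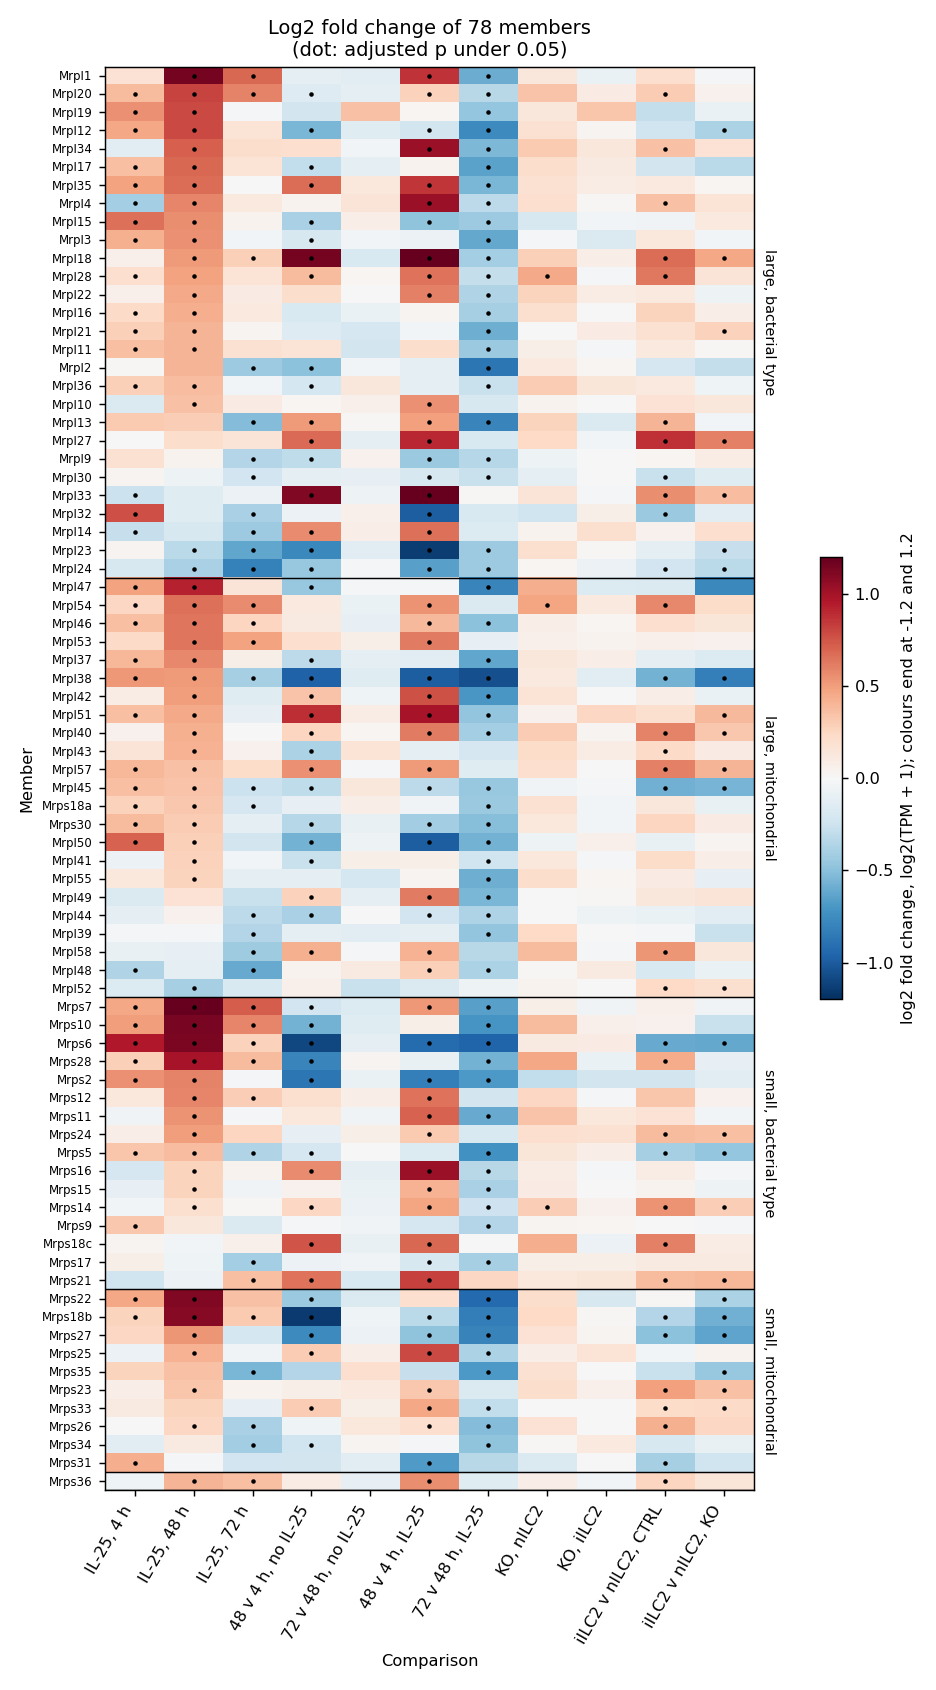
Log2 fold change, on the log2(TPM + 1) scale, of the 78 members (rows, by structural class and then by the IL-25 effect at 48 h) in 11 comparisons (columns); dots mark adjusted p under 0.05. The column for IL-25 at 48 h is mostly red (54 higher, 3 lower), that for 72 against 48 h with IL-25 mostly blue (60 lower), and the KO columns are pale.

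The change of the IL-25 effect was tested as an interaction. Effects are signed, so a change to a lower value need not be a change to a smaller effect. From 4 to 48 h the effect moved up for 24 members and down for 3, against 27.9% of genes called. Mrpl4, which fell at 4 h and rose at 48 h, gained 0.99, Mrpl1 0.98 and Mrps18b 0.82 (SE 0.10, adjusted p 7.68e-07), whereas the effect on Mrpl32 fell by 0.92. With quantile normalization the counts were 12 and 4. From 48 to 72 h the effect moved down for 42 and up for 1, against 14.7% of genes called. The median change was -0.40 against -0.09 over all genes. Among the 42, the effect on Mrps5 went from 0.37 to -0.36 and that on Mrpl44 from 0.05 to -0.32. Under the median of ratios 21 moved down and 1 up (13.9% of all genes called), and with quantile normalization 17 and 1 (13.3%). The effect fell by 0.91 for Mrpl38, by 0.78 for Mrps18b, by 0.73 for Mrps5 and by 0.62 for Mrpl12.

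**Figure D3:**
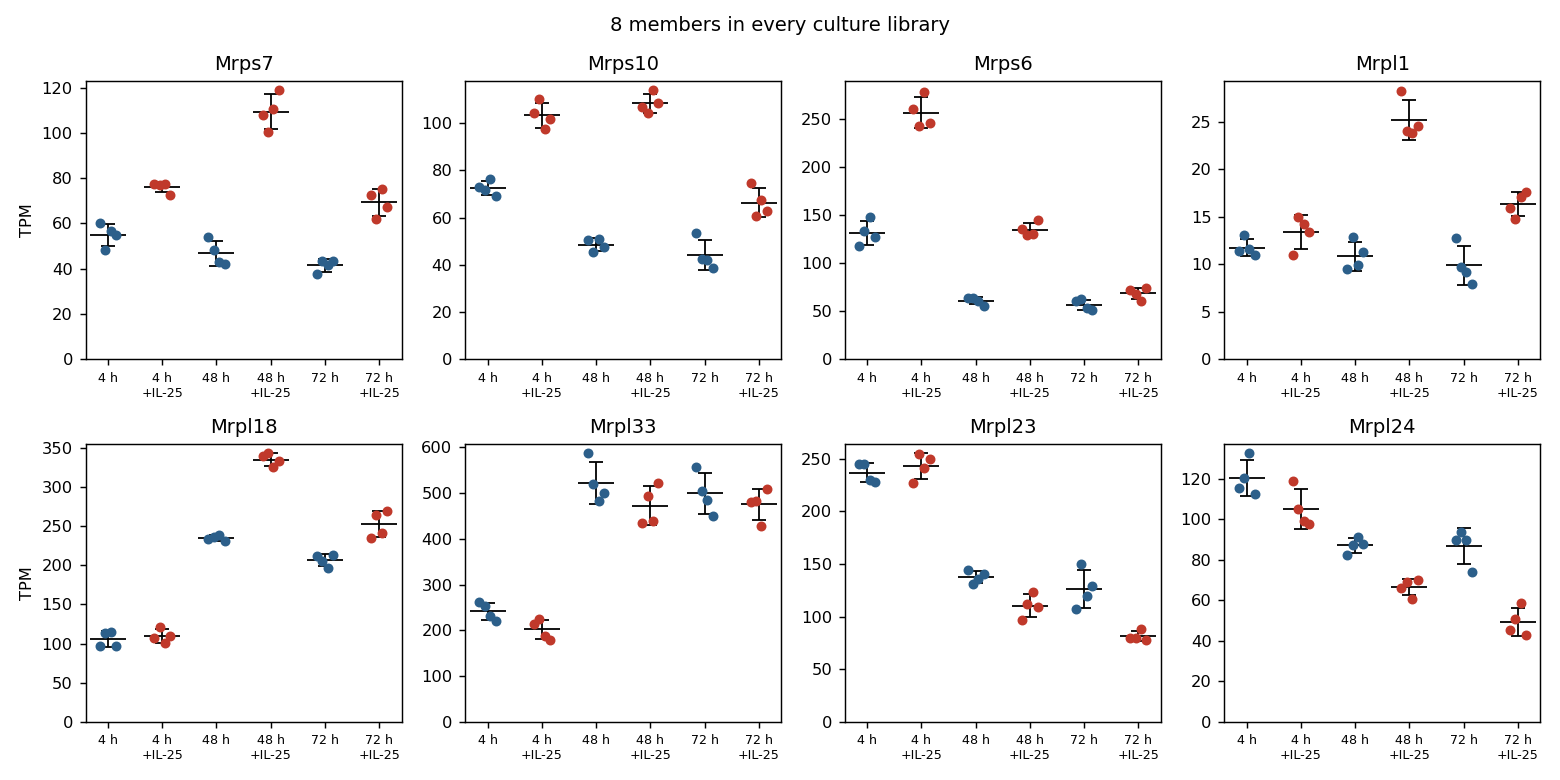
TPM of 8 members in each of the 24 culture libraries (points; blue without and red with IL-25), with the group mean and SD. Mrps7 and Mrpl1 are highest with IL-25 at 48 h, Mrps10 is similarly high at 4 and 48 h with it, Mrpl18 and Mrpl33 are higher from 48 h on in both media, and Mrpl23 and Mrpl24 are lowest with IL-25 at 72 h.

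Time in culture moved the members in both directions even without IL-25. From 4 to 48 h, 19 rose and 29 fell, against 64.4% of genes called (19.9% higher and 44.5% lower), and the median of -0.10 lay above the all-gene median of -0.28. The split again differed between scalings. The median of ratios, which shifted the all-gene median to 0.01, gave 40 higher and 9 lower, with 60.1% of all genes called. Quantile normalization gave 31 and 13, with 61.1% called. Mrpl18 rose from 96.8, 113.8, 115.3 and 96.2 TPM to 233, 236, 239 and 231 TPM, by 1.15 (SE 0.07, adjusted p 1.65e-13). It shares its span in part with Tcp1. Mrpl33, already the most abundant, rose from 242 ± 19.1 to 523 ± 45.8 TPM, by 1.11. Mrpl51 rose by 0.89. The largest falls were those of Mrps18b, by 1.15, Mrps6, by 1.09, Mrpl38, by 0.97, and Mrps2, by 0.87. Among the members followed throughout, Mrpl12 was at 110.6 ± 10.6 and 75.3 ± 6.56 TPM and fell by 0.55, a call lost under the median of ratios (-0.22, adjusted p 0.116). Mrpl41, Mrpl45 and Mrps5 fell by 0.27, 0.30 and 0.20 as deposited, and under the median of ratios their values turned to 0.06, 0.02 and 0.13, none of them called. The call of Mrps5 was also lost without any one of 4 libraries (4h_IL2_IL7 replicates 1, 3 and 4 and 48h_IL2_IL7 replicate 1), at values between -0.19 and -0.16.

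With IL-25, 37 members rose and 18 fell from 4 to 48 h, against 72.2% of genes called (27.6% higher and 44.5% lower). The median of ratios gave 49 and 9, with 71.0% of all genes called. The 2 time courses share no libraries. All 19 members that rose without IL-25 rose with it too, which is 51.4% of the 37, and 14 of the 29 that fell without it fell with it (48.3%, and 77.8% of the 18). Of all 78 members, 47.4% rose and 23.1% fell with it. Mrpl20 and Mrps7 fell without and rose with IL-25. Mrpl18 rose by 1.61 (SE 0.07) to 335 ± 7.78 TPM, Mrpl33 by 1.23, and Mrpl34 and Mrps16 by 1.04 each. Mrpl23 fell by 1.14, from 243 ± 12.3 to 110.3 ± 10.9 TPM, and Mrpl32, Mrpl38 and Mrpl50 by 0.99 each. Mrpl32 and Mrpl50, among the first to rise with IL-25 at 4 h, were thus back to 96.8 ± 8.55 and 32.9 ± 2.50 TPM at 48 h.

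Between 48 and 72 h the media differed. Without IL-25 limma called no member, 7 had an unadjusted p under 0.05 (2 higher and 5 lower), and 0.379% of all genes were called. With IL-25, 60 members fell and none rose, against 31.2% of genes called (17.9% lower and 13.4% higher). The median was -0.43, against -0.04 over all genes, and 75 of the 78 values were negative. All classes took part, with 23 of 28 and 17 of 23 large subunit genes and 12 of 16 and 8 of 10 small subunit genes lower. The median of ratios left 54 of the falls (33.3% of all genes called), and quantile normalization 49 with 1 rise (32.1%). Mrpl38, from the central protuberance, fell from 44.9, 41.8, 42.8 and 49.4 TPM to 21.5, 22.5, 22.7 and 17.7 TPM, by 1.05 (SE 0.11, adjusted p 3.98e-08). Mrps6 fell by 0.97, Mrps22 by 0.93 and Mrpl2, which overlaps Klc4, by 0.87. Mrpl12 fell by 0.77 and Mrps5 by 0.72. Mrps12, Mrps36, Mrpl10 and Mrps18c were not called, at -0.22, -0.14, -0.20 and 0.00.

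The Mrps18 paralogs, which derive from one bacterial protein and now sit at different places in the ribosome, followed separate courses. Mrps18b (chromosome 17, 35910380 to 35916440), a mitochondrial protein of the small subunit, was at 216, 203, 215 and 195 TPM at 4 h and at 103.9, 86.4, 98.0 and 85.5 TPM at 48 h without IL-25. With IL-25 it was at 254, 240.2, 258 and 249 TPM, then at 209, 175, 212 and 205 TPM, and at 72 h at 110.1, 110.0, 111.1 and 117.7 TPM. It was higher with IL-25 at each time, by 0.27, 1.09 and 0.32 (adjusted p 0.0041, 3.14e-12 and 8.73e-04). Mrps18c (chromosome 5, 100798759 to 100804467), the small subunit protein closest to the bacterial one, rose with time, by 0.75 without and 0.69 with IL-25 from 4 to 48 h. It was at 83.4 ± 14.6 TPM at 4 h and 140.7 ± 17.6 TPM at 48 h without IL-25, and was not called for IL-25 at any time (0.03, -0.03 and 0.06). At 72 h that value was 0.29 under the median of ratios (adjusted p 0.0412). Mrps18a (chromosome 17, 46111004 to 46128908), in the large subunit, stayed between 74.0 and 116.6 TPM in all culture libraries and rose with IL-25 by 0.27 at 4 h and 0.32 at 48 h. The ratio of Mrps18b to Mrps18c went from 2.53 ± 0.325 at 4 h to 0.677 ± 0.140 at 48 h without IL-25, and with IL-25 from 2.98 ± 0.185 to 1.47 ± 0.114 and, at 72 h, 0.821 ± 0.0274 (SD, n = 4). Mrps18b thus changed from the more to the less abundant of the pair in both media.

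**Figure D4:**
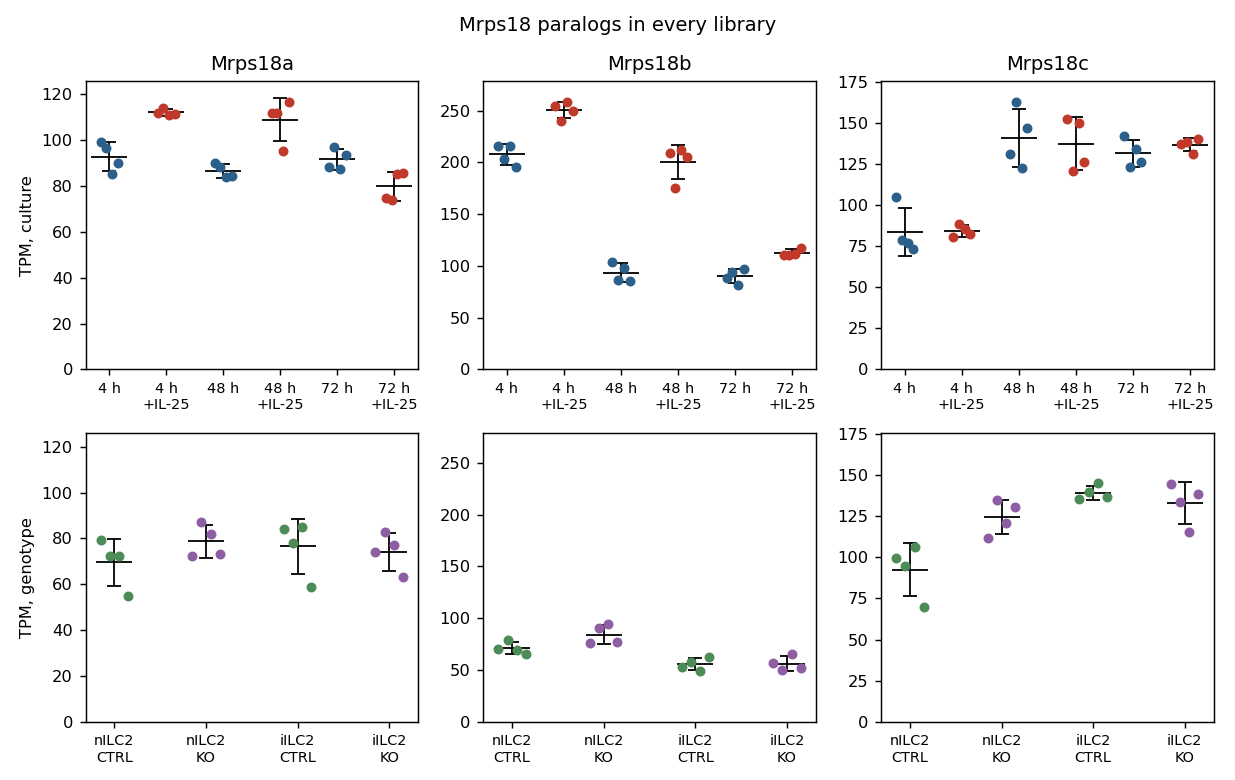
TPM of Mrps18a, Mrps18b and Mrps18c in each culture library (top) and each genotype library (bottom), with the group mean and SD; the vertical scale is the same in both panels of a gene. Mrps18b falls from over 195 TPM at 4 h while Mrps18c rises, and in the genotype experiment Mrps18b is lower and, in CTRL, Mrps18c higher in iILC2.

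In the genotype experiment, which asks what loss of Rxrg does in each cell population, few members were called between KO and CTRL. In nILC2, 3 members were higher and none lower, against 1.54% of 10069 genes called. They were Mrpl54 (log2 fold change 0.47, SE 0.09, adjusted p 0.0245), Mrps14 (0.30, SE 0.07, adjusted p 0.0317) and Mrpl28 (0.46, SE 0.11, adjusted p 0.0444). In the controls Mrpl54 had 140.8, 161.0, 164.5 and 133.0 TPM, and in the KO libraries 170.1, 204, 235 and 228 TPM. Mrps14 was at 178, 189.9, 191.9 and 163 TPM without the deletion and at 204, 224, 228 and 234 TPM with it. In both the groups did not overlap, whereas those of Mrpl28 did. The median of all 78 was 0.14 against 0.00 over all genes, and 66 were positive. Over the 6218 genes with a mean of 10 TPM or more, a level that every member reached, the median was 0.03. At an unadjusted p under 0.05 there were 22 members (20 higher and 2 lower). The share of all genes at that unadjusted threshold is not given here, for this or any other comparison. Mrps18c was just outside, at 0.44 (adjusted p 0.0506), with no overlap. Markers moved with the same contrast. The 2 listed myeloid markers summed to between 8.15 and 22.2 TPM in nILC2 CTRL and between 25.3 and 38.0 TPM in nILC2 KO. The 2 listed epithelial markers summed to between 18.4 and 30.4 TPM and between 12.0 and 16.5 TPM. Gata3 was at 282 ± 13.4 and 218 ± 25.4 TPM, and Il17rb at 286 ± 31.6 and 209 ± 25.5 TPM. Their part in the KO values was not tested.

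The count of 3 rests on single libraries. nILC2 CTRL replicate 4 and nILC2 KO replicate 1 had the lowest summed member RNA of their groups, 6115 TPM against 7027 to 7267 in the other controls and 6860 TPM against 7759 to 8040 in the other KO libraries. Without nILC2 KO replicate 1, 17 members were higher. Without nILC2 CTRL replicate 4 or without any one of nILC2 KO replicates 2, 3 and 4, none was called, and without nILC2 CTRL replicates 1, 2 or 3 there were 1, 5 and 2. The share of all genes called without single libraries is not given here. With both low libraries left out there were 8, all higher, and 5.53% of all genes were called. A fit of the compared groups alone called none (0.0497% of genes), and a replicate block 6 (3.15% of genes).

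In iILC2 limma called no member for the KO, 1 had an unadjusted p under 0.05, and 0% of genes were called. Values ran from -0.22 to 0.34 around a median of 0.01, with a median SE of 0.11. The difference between the KO effects in iILC2 and nILC2 was called for none either (0% of genes). At an unadjusted p under 0.05 there were 9 members, 8 of them with the lower signed effect in iILC2. The summed member RNA was 6887 ± 524 TPM in nILC2 CTRL, 7660 ± 547 TPM in nILC2 KO, 7856 ± 111 TPM in iILC2 CTRL and 8037 ± 107 TPM in iILC2 KO (SD, n = 4).

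Between the cell populations, the summed member RNA in CTRL ranged from 6115 to 7267 TPM in nILC2 and from 7753 to 7989 TPM in iILC2, without overlap. Of single members 23 were higher and 10 lower in iILC2 (42.3% called), near the 45.5% of all genes called (21.9% higher and 23.6% lower). The median was 0.11, against -0.03 over all genes. Over the 6218 genes with a mean of 10 TPM or more, a level that every member reached, it was 0.08. With quantile normalization the counts were 15 and 15, with 42.7% of all genes called. Mrpl27 led, with 85.4, 86.9, 106.4 and 64.1 TPM in nILC2 and 174, 166.5, 154 and 133 TPM in iILC2 (log2 fold change 0.88, SE 0.12, adjusted p 6.33e-06), and it overlaps Eme1. Mrpl18 was higher by 0.67, Mrpl28 by 0.63 and Mrpl57, which overlaps Ska3, by 0.61. Mrps6 was lower by 0.60 and Mrpl45 by 0.58 (SE 0.09, adjusted p 6.83e-05), the latter at 61.4 ± 5.47 TPM in nILC2 and 40.8 ± 3.02 TPM in iILC2. Mrpl38 was lower by 0.57, Mrps27, a pentatricopeptide repeat protein, by 0.49 and Mrpl32 by 0.45. Of the paralogs, Mrps18b was lower by 0.35 and Mrps18c higher by 0.60. Markers of other cells moved with the same contrast: the 2 listed myeloid markers of 8 summed to between 8.15 and 22.2 TPM in nILC2 CTRL and between 33.1 and 63.0 TPM in iILC2 CTRL, and Cd79b, the one listed B cell marker of 6, to between 116.6 and 153.8 TPM and between 237.9 and 282 TPM. Their part in the differences was not tested.

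In KO, in libraries not used for the CTRL comparison, 13 were higher and 11 lower, against 31.4% of genes called (13.8% higher and 17.6% lower). The median was 0.00, against -0.05 over all genes and 0.03 over those with a mean of 10 TPM or more. Quantile normalization gave 5 and 14 (27.7% of all genes called), and leaving out both low nILC2 libraries 9 and 15 (29.4%). Without nILC2 KO replicate 1 there were 7 and 13, and over all single libraries left out between 7 and 15 were higher and between 8 and 13 lower. Of the 23 members higher in CTRL, 11 were also higher in KO (47.8%, and 84.6% of the 13), and of the 10 lower, 7 were lower again (70% and 63.6%). Of all 78 members, 16.7% were higher and 14.1% lower in KO. Mrpl27, Mrpl18 and Mrpl57 were higher in both, and Mrpl24, Mrpl38, Mrpl45, Mrps5, Mrps6, Mrps18b and Mrps27 lower in both, although the CTRL call of Mrps5 was lost without nILC2 CTRL replicate 2 (-0.27, adjusted p 0.0676). No member was called in opposite directions. Mrpl38 was lower by 0.82 in KO (SE 0.15, adjusted p 4.18e-04), at 42.1 ± 6.09 TPM in nILC2 and 23.3 ± 2.28 TPM in iILC2. Mrps18c, higher in iILC2 in CTRL, was not called in KO, at 0.09. It was at 92.6 ± 16 TPM in nILC2 CTRL and 124.6 ± 10.5 TPM in nILC2 KO, and at 139.2 ± 4.38 and 133.0 ± 12.6 TPM in the corresponding iILC2 groups.

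The culture and genotype experiments share no libraries. Of the 54 members that rose with IL-25 at 48 h, 15 were higher and 6 lower in iILC2 CTRL (27.8% and 11.1%), shares close to those of all 78 members (29.5% and 12.8%). They made up 65.2% of the 23 higher and 60% of the 10 lower. The 6 were Mrpl38, Mrpl45, Mrps5, Mrps6, Mrps18b and Mrps27.

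**Figure D5:**
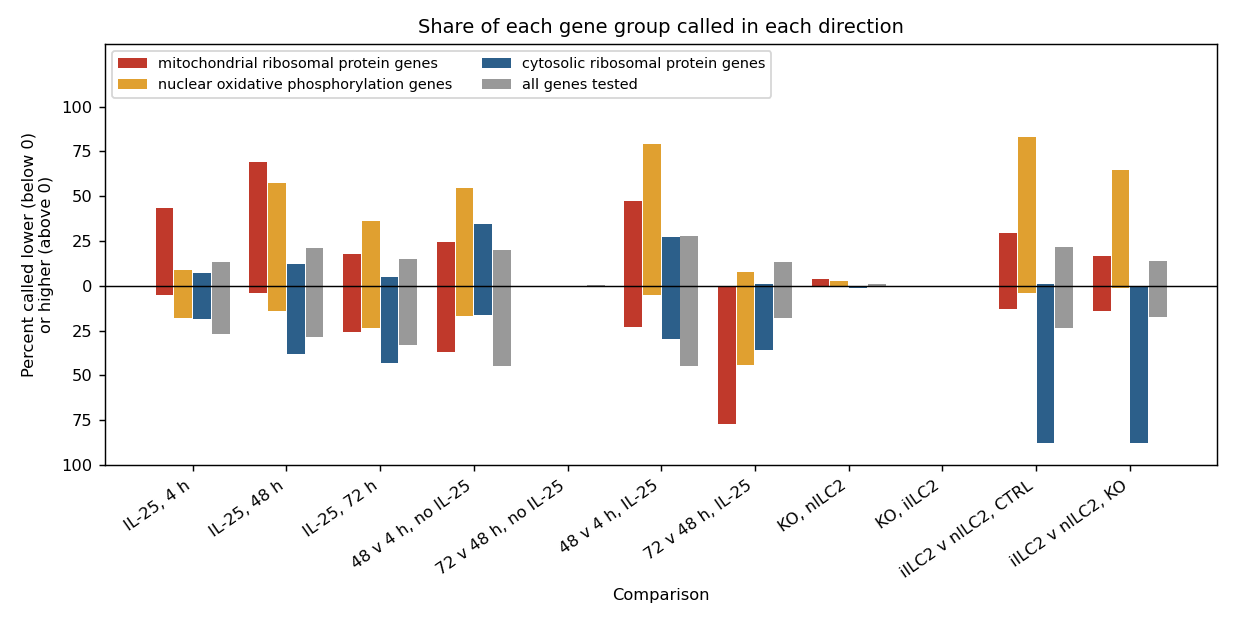
Percent of the genes tested in each group that were called higher (above 0) or lower (below 0) in 11 comparisons, for 78 mitoribosomal, 77 nuclear oxidative phosphorylation and 81 cytosolic ribosomal protein genes and for all genes tested. The cytosolic ribosomal genes are mostly lower in iILC2 (71 of 81), where the mitoribosomal ones split (23 higher and 10 lower in CTRL).

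Nuclear genes of the cytosolic ribosome and of oxidative phosphorylation were counted for comparison. Of 81 cytosolic ribosomal protein genes, 10 were higher and 31 lower with IL-25 at 48 h, and 1 was higher and 71 lower in iILC2 CTRL. Of 77 nuclear genes for oxidative phosphorylation, 44 were higher and 11 lower with IL-25 at 48 h, 28 and 18 at 72 h, and 64 and 3 in iILC2 CTRL. From 48 to 72 h with IL-25, 34 oxidative phosphorylation genes and 29 cytosolic ribosomal genes fell, against 60 of the 78 members. The medians were -0.16, -0.10 and -0.43. Whether the gene groups differ from each other was not tested.

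Other genes of mitochondrial translation were counted from lists, to be read against the 50.1% of all genes called at 48 h (21.4% higher and 28.7% lower) and the 48.5% called at 72 h (15.3% higher and 33.2% lower). All 6 listed mitoribosomal proteins with other symbols rose with IL-25 at 48 h, among them Gadd45gip1, by 0.72, Ndufab1, the mitochondrial acyl carrier protein, by 0.68 and Ptcd3 by 0.64. Of 16 translation factors 7 rose and none fell, 43.8% of the list. Among them, and chosen after their values were seen, were Gfm1, the elongation factor that moves the ribosome along, with a rise of 0.74, Tsfm with 0.63, Pdf, the deformylase that trims new chains, with 1.28 (from 12.8 to 31.4 TPM), and Slirp with 0.85. Of 27 assembly factors, 5 rose and 8 fell at 48 h, and none rose and 14 fell at 72 h. These are 48.1% and 51.9% of the list, near the shares of all genes called in either direction. At 72 h all of those called fell, whereas of all genes 33.2% fell and 15.3% rose. Mettl17, which helps to assemble the small subunit, fell by 0.75 at 48 h and 1.18 at 72 h, to 18.5 from 42.2 TPM, and was lower by 0.92 in iILC2 CTRL. Mrm3, a methyltransferase of the large ribosomal RNA, rose by 0.77 at 48 h. Tfb1m, Rbfa and Ngrn fell by 0.81, 0.75 and 0.67 at 72 h.

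Of 20 genes for mitochondrial tRNA charging, 2 rose and 2 fell at 48 h, and none rose and 10 fell at 72 h. These are 20% and 50% of the list, the latter near the share of all genes called in either direction. Here too all of those called at 72 h fell, against 33.2% of all genes. Ears2, the glutamyl synthetase, fell by 1.29 at 72 h and Pars2 by 0.79. Ears2 was lower by 0.93 in iILC2 CTRL. Of 18 genes for the expression and upkeep of mitochondrial DNA, 7 rose and 1 fell at 48 h and 1 rose and 5 fell at 72 h (44.4% and 33.3%). Tfam, which packs and transcribes mitochondrial DNA, rose by 0.47 at 48 h, and Tefm, the elongation factor of its polymerase, fell by 0.55 at 72 h and was lower by 1.62 in iILC2 CTRL (3.8 against 13.5 TPM). Of 12 regulators linked with mitochondrial biogenesis, 1 rose and 2 fell at 48 h and 1 rose and 5 fell at 72 h (25% and 50%). Myc, a transcription factor of growth, rose by 0.91 to 94.5 ± 5.52 TPM with IL-25 at 48 h and was lower by 1.70 in iILC2 CTRL, where nILC2 CTRL had 49.9 ± 6.66 TPM. Pprc1 fell by 0.72 at 72 h and was lower by 0.96 in iILC2 CTRL, whereas Nrf1 fell by 0.36 at 72 h and was higher by 0.56 in iILC2 CTRL, and Gabpa was higher by 0.49.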

How the data were processed

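RNA of 40 libraries in 10 groups of 4 was analysed, of 54 samples in the series. The other 14, of chromatin assays, were not analysed here. The deposited tables hold TPM, computed by the authors per library; the submitters' processing notes name cutadapt 2.10, STAR 2.7.5c and RSEM 1.3.3 without giving roles, and the build mm10. Strand use and any filter behind the genes listed are not given in the sources used here. TPM keeps no depth, so no depth or counting error can be given.

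The 2 tables were fitted separately on log2(TPM + 1) by limma 3.58.1 (R 4.3.3), with a mean-variance trend, over genes at 1 TPM or more in at least 4 libraries. Fold changes are on that scale and understate those of low genes. The Benjamini-Hochberg adjustment ran over all tested genes, and calls needed an adjusted p under 0.05. The fit was tested on simulated data. The alternatives were a pseudocount of 0.1 TPM, quantile normalization, median-of-ratios rescaling, array weights, no filter or one of 5 TPM, a replicate block, fitting only the 2 groups compared, leaving out each library and, chosen after seeing the data, leaving out both low nILC2 libraries.

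The members and lists were chosen with earlier results of these data known. Members were named from a list of structural landmarks, the highest and lowest levels, and up to 4 rises and 4 falls per comparison, called, without overlap and at 10 TPM or more in the higher group. Other genes of mitochondrial translation were named by size of change at 72 h and in iILC2 CTRL. Those named at 48 h, in the changes of the IL-25 effect, Mrpl28 in KO and the Mrps18 windows were chosen after their values were seen. Same-numbered libraries deviated together, by the rule that every correlation exceed 0.1, only for nILC2 KO with iILC2 KO (0.10 to 0.23). In that pair of groups each library also correlated best with its own number. Own numbers matched best throughout for nILC2 CTRL with iILC2 CTRL too (0.049 to 0.25), and for 4 h with 48 h without IL-25 (0.013 to 0.13). Such a pairing has no source in the labels, and the main fit was unpaired. With a replicate block, 23 members were higher and 9 lower in iILC2 CTRL, with 47.6% of all genes called.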

Additional observations from a re-analysis of the deposited data

Results flagged for a closer look

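In 8 of 140 groups of 4 libraries tested, 1 library lay far from the other 3 (Dixon's test); chance gives about 1 in 20. These were Mrpl10 at 37.29 TPM and Mrpl45 at 71.14 TPM in 1 library each at 4 h with IL-25, Mrpl11 at 35.01 TPM at 4 h without it, Mrps18b at 117.67 TPM at 72 h with IL-25, Mrpl45 at 36.33 TPM and Mrps30 at 32.23 TPM in iILC2 CTRL, Mrps12 at 174.59 TPM in iILC2 KO and Mrps30 at 20.8 TPM in nILC2 CTRL.

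The effect of IL-25 differed between times by an interaction test in limma. From 4 to 48 h it changed by 0.52 for Mrpl10, 0.46 for Mrps12, 0.82 for Mrps18b and 0.47 for Mrps36 on the log2 scale. From 48 to 72 h it changed by -0.62 for Mrpl12, -0.37 for Mrpl44, -0.59 for Mrpl45, -0.73 for Mrps5, -0.52 for Mrps18a and -0.78 for Mrps18b.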

How the results depend on the processing

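Of the counts of members called, those for KO against CTRL in nILC2 (3 as reported) and for the changes of the IL-25 effect moved by over 1.5 times under some alternative. The nILC2 count was 5 under the median of ratios, 0 when only the 2 groups were fitted, 6 with array weights, 6 with a replicate block and 8 with both low nILC2 libraries left out. The share of all genes called moved too, from 1.54% as reported to 2.7%, 0.0497%, 2.73%, 3.15% and 5.53% in the same order. The count ranged from 0 to 17 when single libraries were left out. The change from 4 to 48 h gave 16 with quantile normalization, and the change from 48 to 72 h 22 under the median of ratios and 18 with quantile normalization. In the same order 28%, 13.9% and 13.3% of all genes were called. Leaving out single libraries gave 53 to 58 members for IL-25 at 48 h, 30 to 35 at 72 h and 58 to 60 for 72 against 48 h with IL-25. The replicate block moved no other count by over 1.5 times. Of the 198 values of named members, 8 changed sign, each under the median of ratios: Mrps18a with IL-25 at 72 h (0.0335), Mrpl41, Mrpl45, Mrps5 and Mrps18a for 48 against 4 h without IL-25 (0.059, 0.0248, 0.125 and 0.231) and Mrpl12, Mrpl44 and Mrps18a for the same times with IL-25 (0.0644, 0.0443 and 0.235). That rescaling moved the median of all genes from -0.28 to 0.01 and from -0.24 to 0.00 in these comparisons of time. TPM gives no depth, and shares of RNA cannot show a change common to all transcripts.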
